A study of Mus musculus with 2 samples.

Results

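In nuclear RNA of bone marrow-derived macrophages, 403 loci of provisional or intron-nested annotation reached a mean level of at least 3 TPM (an estimate of transcript abundance that is divided by length and scaled to the same total in each library) with at least 100 expected counts over both libraries. They were chosen by annotation and level from 3572 loci whose transcripts are all of the types TEC, sense_intronic or sense_overlapping, out of 55536 annotated genes. Of the 403, 362 were TEC, 38 sense-intronic and 2 sense-overlapping, and Gm43813 carried 1 transcript of each of the types TEC and sense_intronic. The loci are mostly unspliced but not all are: 390 had a single exon and 13 had 2 or 3 exons, all of these 13 being sense-intronic or, for Gm43813, mixed. Another 1660 loci of the 3 types had 0 counts in both libraries. The count limit removed 35 loci that passed the TPM limit, and these were short, with lengths of 143 to 777 bases and a median of 439, so the lower end of the length range below is set in part by that limit. The loci were unevenly placed, with 71 on chromosome 1, 57 on chromosome 5, 43 on chromosome 6 and 40 on chromosome 3, but 2 on chromosome 4 and 1 on chromosome 11. The annotated loci of the 3 types are uneven too, with 510, 540, 321 and 392 on the first 4 of these chromosomes and 44 and 29 on the last 2.

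The study measured ribosomal RNA-depleted total RNA in 2 libraries of 1 group. The cells were primary macrophages grown from C57BL/6J bone marrow, first given 100 ng/ml Lipid A (the membrane anchor of lipopolysaccharide, which stimulates TLR4) for 12 hours, kept without it for 12 hours, and given 100 ng/ml again for 20 minutes. The fraction is named nuclear in one label and nucleoplasmic in another. Replicate 2 started from 500 ng of RNA and replicate 1 from 1 µg, so the input amount and the replicate cannot be told apart; both libraries carry 1 donor label, and the labels do not say whether the cells came from different mice. No untreated cells and no other fraction are compared here, so a level cannot be read as a response to Lipid A. In bulk RNA, fewer cells of a type and less RNA per cell cannot be told apart.

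TEC is the annotators' mark for loci that still await an experiment: it is given to clusters of unspliced cDNA evidence with signs of a polyadenylated end that no experiment has yet settled. A sense-intronic transcript lies inside an intron of another gene on the same strand, and a sense-overlapping transcript holds a coding gene within its own intron. Nuclei contain nascent and unspliced RNA, so sequence of an intron can be read from the primary transcript of the gene around it as well as from a transcript of its own, and a count table does not separate the sources. Many short-lived nuclear RNAs are degraded by the nuclear exosome, which adaptor complexes such as NEXT guide to its targets.

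The first 120 bases are given for the 4 loci with the largest shift in level toward replicate 2, with G and C in capitals, because base composition is set beside the shift further on. These loci were picked for their shift, so they illustrate that relation and are no evidence for it. All are single-exon loci on mm10, printed 5′ to 3′ on their own strand, and the windows were taken only where they hold no coding or untranslated part of another gene. 3110062G12Rik starts at chr1:176746863-176746982 on the minus strand in an intron of Cep170, Gm45222 at chr7:90145948-90146067 on the plus strand in an intron of Picalm, Gm43200 at chr5:45772061-45772180 on the minus strand in an intron of Lcorl, and Gm44559 at chr7:59263815-59263934 on the minus strand opposite an intron of Ube3a.
3110062G12Rik: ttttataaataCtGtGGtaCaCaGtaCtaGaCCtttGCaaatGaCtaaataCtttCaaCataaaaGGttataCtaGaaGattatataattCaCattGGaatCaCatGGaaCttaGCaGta
Gm45222: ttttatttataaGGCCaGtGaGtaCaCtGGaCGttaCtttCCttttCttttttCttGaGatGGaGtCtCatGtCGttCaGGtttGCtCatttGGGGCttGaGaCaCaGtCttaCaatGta
Gm43200: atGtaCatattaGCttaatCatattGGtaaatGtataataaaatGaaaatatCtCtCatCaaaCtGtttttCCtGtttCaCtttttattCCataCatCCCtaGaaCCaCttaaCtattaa
Gm44559: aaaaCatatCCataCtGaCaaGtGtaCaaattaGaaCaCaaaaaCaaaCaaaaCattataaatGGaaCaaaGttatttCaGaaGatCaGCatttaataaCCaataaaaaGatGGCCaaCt

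The same stretch follows for the 4 loci with the lowest shift among those with such a window, again with G and C in capitals. Gm37842 starts at chr9:56263599-56263718 on the plus strand in an intron of Peak1os, Gm37376 at chr19:5801941-5802060 on the plus strand inside an exon of Malat1 on the other strand, Gm45244 at chr8:46473471-46473590 on the minus strand opposite Acsl1, and 2310043P16Rik at chr7:34389732-34389851 on the plus strand in the noncoding gene Gm12764. GC content of the 120 bases ran from 25.8% to 39.2% in the first set and from 47.5% to 66.7% in this one, so the sets do not overlap; over the whole transcript it was 28.8% to 37.4% in the first set and 41.0% to 47.1% in this one, against a median of 41.5% over all 403 loci.
Gm37842: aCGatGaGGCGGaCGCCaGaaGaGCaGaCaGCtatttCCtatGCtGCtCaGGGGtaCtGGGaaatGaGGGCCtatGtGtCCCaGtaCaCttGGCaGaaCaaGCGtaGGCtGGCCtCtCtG
Gm37376: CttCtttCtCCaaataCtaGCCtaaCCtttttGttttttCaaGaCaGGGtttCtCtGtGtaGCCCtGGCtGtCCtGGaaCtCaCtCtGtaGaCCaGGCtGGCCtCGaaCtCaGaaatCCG
Gm45244: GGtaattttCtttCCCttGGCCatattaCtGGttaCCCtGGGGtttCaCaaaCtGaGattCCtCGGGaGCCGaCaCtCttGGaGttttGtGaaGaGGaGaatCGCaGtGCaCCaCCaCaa
2310043P16Rik: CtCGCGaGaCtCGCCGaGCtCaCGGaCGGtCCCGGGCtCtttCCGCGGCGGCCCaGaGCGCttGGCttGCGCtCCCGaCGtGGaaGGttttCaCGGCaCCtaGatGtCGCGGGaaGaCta

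The last 60 bases of 6 of the most abundant loci show what their annotated 3′ ends look like, with the polyadenylation hexamer AATAAA in capitals where it occurs. They end within chr19:5802334-5802393 (plus), chr6:3336772-3336831 (minus), chr3:60539685-60539744 (plus), chr3:106569577-106569636 (plus), chr1:138161820-138161879 (minus) and chr8:90878417-90878476 (plus), in the order printed. Gm43197 was the only one of these 6 with the hexamer.
Gm37376: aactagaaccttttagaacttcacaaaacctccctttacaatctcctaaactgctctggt
Gm43197: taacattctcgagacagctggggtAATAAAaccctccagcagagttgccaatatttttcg
Gm37589: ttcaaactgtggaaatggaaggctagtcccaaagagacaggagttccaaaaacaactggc
Gm43071: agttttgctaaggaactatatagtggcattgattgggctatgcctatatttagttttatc
A130071D04Rik: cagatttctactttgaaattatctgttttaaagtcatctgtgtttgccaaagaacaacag
Gm45640: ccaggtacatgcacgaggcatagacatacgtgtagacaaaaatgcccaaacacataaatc

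Across the loci, AATAAA was found on the transcript strand within the last 50 bases in 72 of 409 transcripts (17.6%), and in 22.4% of the transcripts of the other loci of the same types. Under the same TPM and count limits, the share was 38.9% for lincRNA genes, 31.1% for antisense genes and 28.8% for protein-coding genes, whose figures include all their annotated transcripts. The variant ATTAAA was found in 5.87% of the locus transcripts, and a run of 6 A in 9.05%, against 8.79% in the other loci. A match describes these letters in this window and is not a mapped end of the RNA.

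The 403 loci were low but measurable, and one of them stood far above the rest. Their median level was 6.93 TPM in replicate 2, against 3.76 TPM in replicate 1. For all 9124 genes that met the same limits it was 12.4 TPM in replicate 2, against 9.95 TPM in replicate 1. By mean level, 68 loci were at 10 TPM or more and 183 below 5 TPM. They took 0.978% of all expected counts in replicate 2 (95% Wilson interval 0.973% to 0.982%), against 0.656% in replicate 1 (Wilson interval 0.652% to 0.659%), a mean of 0.817% ± 0.228 (SD, n = 2); the intervals cover counting error only, as reads are not independent molecules. A single locus carried 2.59% of the loci's counts in replicate 2 and 7.40% in replicate 1.

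**Figure D1:**
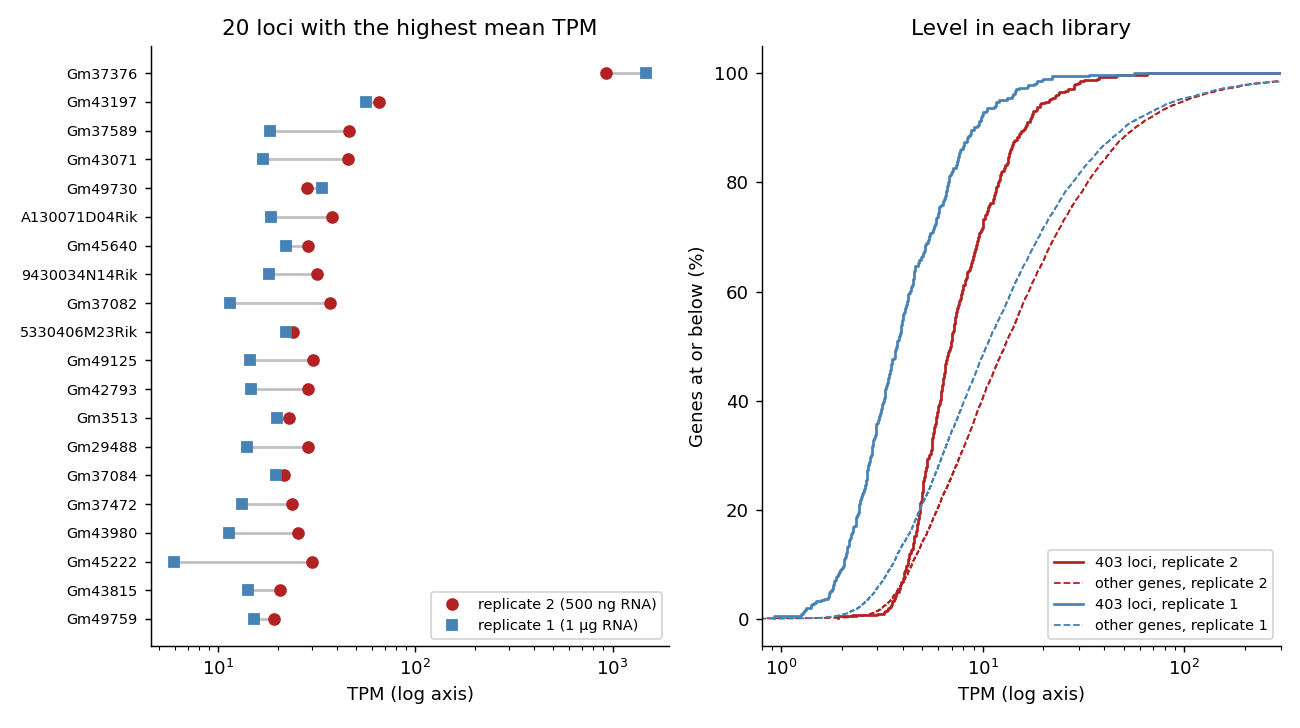
Left, TPM (log axis) of the 20 loci with the highest mean level, with replicate 2 as circles and replicate 1 as squares; right, the percentage of genes at or below each TPM in each library, for the 403 loci (solid) and the 8721 other genes under the same limits (dashed). The loci's curves lie left of the other genes' in both libraries except at the lowest levels of replicate 2, and the gap between libraries is wider for the loci, with medians of 6.93 TPM in replicate 2, against 3.76 TPM in replicate 1.

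That locus was Gm37376, a TEC of 453 bases at chr19:5801941-5802393 on the plus strand, which lies wholly opposite an exon of Malat1, the abundant nuclear-retained long noncoding RNA. It was listed at 931 TPM in replicate 2, against 1477 TPM in replicate 1. Malat1 stood at 28092 TPM in replicate 2, against 16332 TPM in replicate 1, so the pair moved in opposite directions in TPM. In the transcript table made from the reads directly, Gm37376 had 2326 TPM in replicate 2, against 778 TPM in replicate 1, the opposite order. The posterior SD of its count was 256 of 4483 in replicate 2 and 297 of 10659 in replicate 1. Malat1 had 1.87178e+06 expected counts in replicate 2, against 2.30278e+06 in replicate 1. In counts, both were thus lower in replicate 2, the shallower library. The labels and headers used here do not name the strand setting of the quantification, so reads of Malat1 and of Gm37376 cannot be told apart, and its level is uncertain. Without it the summed level of the loci was 3650 TPM in replicate 2, against 2036 TPM in replicate 1, and with it 4581 TPM in replicate 2, against 3513 TPM in replicate 1.

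The next levels belonged to loci inside introns. Gm43197 (chr6:3336772-3339354, minus) had 65.1 TPM in replicate 2, against 56.0 TPM in replicate 1, in an intron of the noncoding gene Gm20559. Gm37589 (chr3:60535751-60539744, plus) had 46.2 TPM in replicate 2, against 18.3 TPM in replicate 1, in an intron of Mbnl1, which encodes a regulator of alternative splicing. Gm43071 (chr3:106567605-106569636, plus) had 45.7 TPM in replicate 2, against 16.8 TPM in replicate 1, in an intron of Dram2, a lysosomal membrane protein gene linked to autophagy. The libraries lie close for Gm43197 and far apart for Gm37589 and Gm43071.

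A130071D04Rik (chr1:138161820-138167683, minus) lies in an intron of Ptprc, the gene of the pan-leukocyte phosphatase CD45, and had 37.6 TPM in replicate 2, against 18.5 TPM in replicate 1. Gm37082 (chr9:32535251-32537177, minus) in an intron of Fli1, an ETS transcription factor gene, had 36.8 TPM in replicate 2, against 11.5 TPM in replicate 1. Gm49730 (chr16:35866179-35867951, minus) in Parp14, an interferon-induced ADP-ribosyltransferase gene, had 28.3 TPM in replicate 2, against 33.7 TPM in replicate 1, lower in replicate 2, and 110 of its bases are exonic in Parp14. Gm42793 in Spp1, the osteopontin gene, had 28.5 TPM in replicate 2, against 14.6 TPM in replicate 1, with 309 bases in Spp1 exons, and Gm49759 in Pkm, the pyruvate kinase gene, had 19.2 TPM in replicate 2, against 15.2 TPM in replicate 1, with 767 exonic bases. Counts of these last 3 may be split with exons of their hosts.

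The other 11 of the 20 most abundant loci had mean levels of 17.3 to 25.2 TPM. Their surroundings were Chd9 and Srgap2 (a chromatin remodeller and a GTPase-activating protein), Tor1aip1 and Fnip2, Ddhd1 and Mapkapk2 (a phospholipase and the kinase MK2 of the p38 pathway), Nfxl1 and Picalm, the noncoding genes Lncpint and Dleu2, and the opposite strand of Tra2a, a splicing factor gene. Gm45222 in Picalm was the most unequal of them, with 29.8 TPM in replicate 2, against 5.97 TPM in replicate 1. The highest sense-intronic loci were Gm3513 in Fnip2 with 23.0 TPM in replicate 2, against 19.8 TPM in replicate 1, Gm29488 in Srgap2 with 28.6 TPM in replicate 2, against 13.9 TPM in replicate 1, and Gm42659 in Capza1 with 21.3 TPM in replicate 2, against 9.02 TPM in replicate 1. The 2 sense-overlapping loci were lower: BX649560.1 had 9.28 TPM in replicate 2, against 5.37 TPM in replicate 1, and Gm20712 had 7.37 TPM in replicate 2, against 3.71 TPM in replicate 1.

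At the limit of 3 TPM the loci just inside were Gm36958 with a mean of 3 TPM, Gm43462 with 3.005 TPM and BC055308 with 3.02 TPM. Just outside, with enough counts, were Gm37063 with 2.98 TPM, Gm48766 with 2.975 TPM and Gm38190 with 2.97 TPM. All 6 had the higher TPM in replicate 2. At 3 TPM and 50 counts, 521 loci would pass on replicate 2 alone and 261 on replicate 1 alone.

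The loci were of ordinary transcript length. Their median was 2133 bases, with quartiles at 1532 and 3067 bases, against 1832 bases for the other loci of the same types. Under the same limits the median was 1910 bases for lincRNA genes, 1469 bases for antisense genes, 868 bases for processed pseudogenes and 2464 bases for protein-coding genes, where the deposited length of a gene with several transcripts is an average weighted by abundance. TEC loci had a median of 2153 bases and sense-intronic loci 1829 bases.

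The longest was 9330162G02Rik, a single-exon TEC of 30942 bases at chr7:59223847-59254788 on the minus strand, opposite Ube3a, the ubiquitin ligase gene that is imprinted in neurons; it had 8.31 TPM in replicate 2, against 2.83 TPM in replicate 1. Next came Gm37033 in Itpkb with 7350 bases, Gm42549 with 7004 bases, Gm37084 in Mapkapk2 with 5898 bases and A130071D04Rik with 5864 bases. The shortest were Gm19918 with 400 bases, Gm37376 with 453, Gm45553 with 507, Gm48194 in Tut7 with 517 and 4930553I21Rik in Sash1 with 580. Level was not ordered by length: the median mean TPM was 5.81 among the 101 shortest loci and 5.17 among the 101 longest. The long loci gather more counts at a given TPM, and 9330162G02Rik had the most summed counts after Gm37376, 5229 in replicate 2 and 2603 in replicate 1.

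**Figure D2:**
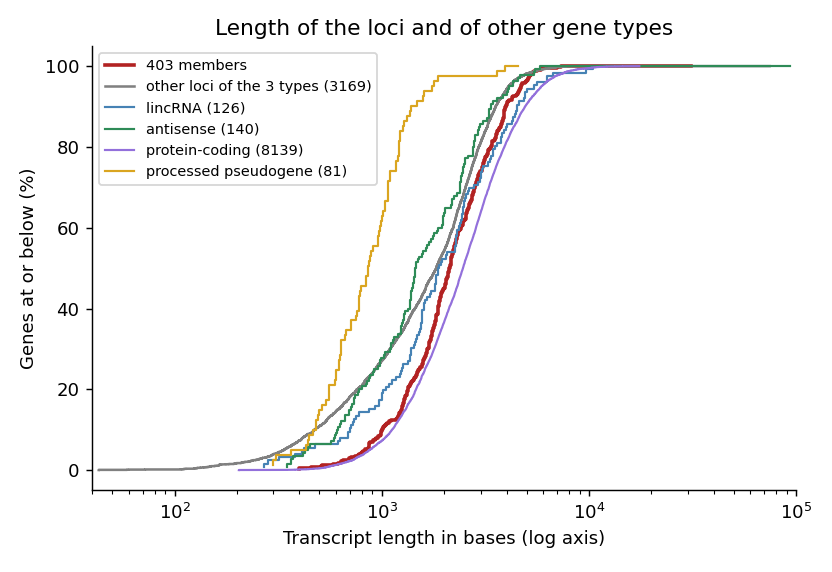
Percentage of genes at or below each transcript length (bases, log axis) for the 403 loci, the 3169 other loci of the same types, and 4 gene types under the same TPM and count limits. The curve of the loci runs between those of lincRNA and protein-coding genes over its lower part and meets that of lincRNA genes above it, with a median of 2133 bases.

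The level of most loci was higher in replicate 2. The shift is the log2 ratio of replicate 2 to replicate 1, with 1 added to both TPM values, less the median of the same ratio among genes that average 1 TPM or more; the addition understates the change of low genes. Its median over the loci was 0.48 (quartiles 0.18 and 0.74, SD 0.47 over loci), and 341 of 403 were above 0. The loci were chosen on the mean of these same TPM values. A locus below 3 TPM in replicate 1 passed only if it was above 3 TPM in replicate 2. More loci would pass on replicate 2 alone (521) than on replicate 1 alone (261). How far the limit sets this median was not tested. With 1 library on each side there is no replicate check and no test, and the library difference cannot be separated from the RNA input.

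Under the same limits the median shift was -0.03 for all other genes, 0.15 for lincRNA genes, 0.11 for antisense genes, -0.03 for protein-coding genes and -0.19 for other single-exon genes. The size of the loci's shift depended on the setting, and its median came close to 0 in one of them. It was 0.28 with 5 added to each TPM and 0.23 in the transcript table made from the reads directly. Over all 1912 loci with any count it was 0.02, with 988 above 0, beside -0.01 for all 9124 genes under the limits. TEC loci had a median of 0.49 and sense-intronic loci 0.35. Among the 13 loci with several exons it was 0.12, against 0.49 for the 390 with 1 exon. Shifts of more than 2-fold toward replicate 2 were seen for 46 loci (11.4%), against 1.9% of all 9124 genes, 12.3% of processed pseudogenes, 11.5% of snRNA genes, 8.57% of antisense genes, 7.79% of other single-exon genes and 3.97% of lincRNA genes. The shares of processed pseudogenes and snRNA genes were close to that of the loci. Shifts of more than 2-fold toward replicate 1 were seen for 3 loci (0.744%), against 3.28% of all genes, 7.41% of processed pseudogenes, 11.5% of snRNA genes, 4.29% of antisense genes, 17.1% of other single-exon genes and 8.73% of lincRNA genes. The deposited TPM intervals, which hold estimation error within a library and no centring, lay wholly higher in replicate 2 for 330 loci (81.9%, against 44.7% of all genes) and wholly lower in replicate 2 for 8 loci (1.99%, against 10.2%).

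The largest shifts toward replicate 2 were in AT-rich stretches. 3110062G12Rik and Gm38104 both lie in Cep170, a centrosomal protein gene: 3110062G12Rik had 9.88 TPM in replicate 2, against 1.30 TPM in replicate 1, a shift of 1.95, and Gm38104 had 17.8 TPM in replicate 2, against 3.77 TPM in replicate 1, a shift of 1.69. Their counts were 243 in replicate 2 against 47 in replicate 1, and 611 in replicate 2 against 190 in replicate 1. Gm45222 in Picalm, a clathrin assembly gene, shifted by 1.86, Gm43200 in Lcorl by 1.77 and Gm44559 opposite Ube3a by 1.72. GC content of these 5 loci was 28.7% to 37.4%, below the median of 41.5% over all 403.

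The lowest shifts belonged mainly to loci on the opposite strand of other genes. 4933440N22Rik, with 2 TEC transcripts opposite Hnrnpf (an RNA-binding protein gene), had 1.91 TPM in replicate 2, against 6.16 TPM in replicate 1, a shift of -1.59. Its shorter transcript was listed at 0 counts in replicate 2 and 45.4 in replicate 1, and its longer one at 67.9 counts in replicate 2 and 141 in replicate 1. Gm10252 opposite Ftl1, the ferritin light chain gene, had 3.73 TPM in replicate 2, against 8.04 TPM in replicate 1, a shift of -1.22. Gm37842 in Peak1os had 2.24 TPM in replicate 2, against 4.80 TPM in replicate 1, a shift of -1.13, close to the -1.10 of its noncoding host. Gm37376 shifted by -0.95 and Gm45244 opposite Acsl1, an acyl-CoA synthetase gene, by -0.85. Of these 5, all but Gm37842 have bases opposite an exon of the other gene.

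The shift of the loci went with GC content. Over the 403 loci Spearman's rho between shift and GC was -0.59, and over 8717 other genes under the same limits it was -0.54; all points share the same pair of libraries, so these are descriptions. With the loci split by GC into 4 groups of 100 or 101, lowest first, they had median shifts of 0.76, 0.55, 0.43 and 0.13. Other genes within the same GC ranges had median shifts of 0.55 (n = 247), 0.34 (n = 866), 0.22 (n = 1422) and -0.15 (n = 6133). The loci were above the other genes of the same range in every group, by less than over all genes. These ranges are wide, and GC was not matched within them. The highest ran from 45.1% to 62.8%, with a median of 47.2% for the loci. The loci's median GC was 41.5%, against 48.8% for all other genes. Centred within 50 bins of GC, the loci's median shift was 0.17 and 284 of 403 were above 0. The bin medians cover all genes averaging 1 TPM or more, the loci among them, so the loci in part set their own centre. With that centring 6 of the 403 rather than 46 were past 2-fold higher, against 0.866% of all genes.

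**Figure D3:**
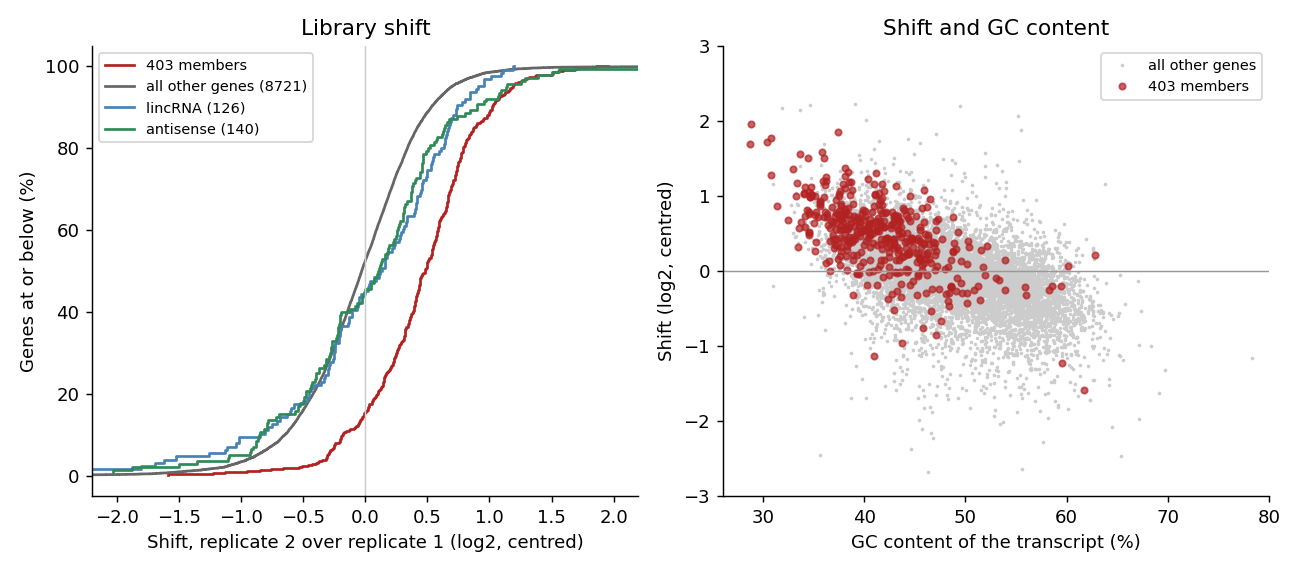
Left, percentage of genes at or below each shift (log2 of replicate 2 over replicate 1, centred) for the 403 loci, all 8721 other genes under the same limits, and the lincRNA and antisense genes among them; right, shift against GC content for the loci and the other genes, 22 of which lie beyond the axis or have no GC value. The loci's curve lies to the right, with a median of 0.48, and the loci sit at the AT-rich end of the falling cloud of all genes.

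Length and level did not order the shift in the same way. Split the same way by length, the loci had median shifts of 0.39 in the shortest group, then 0.47, 0.51 and 0.51, with Spearman's rho of 0.10 over 403 loci. Split by mean level, the groups had medians of 0.44, 0.51, 0.45 and 0.51, with rho of 0.00.

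Most of the loci lay inside introns of other transcribed genes. A host was taken as a gene of another type on the same strand that contains the whole locus. Where several genes did, the one with the highest mean TPM was taken, which can only raise host levels relative to the loci. A host was found for 318 of 403 loci (78.9%), 307 with no base in a host exon and 11 with some. Loci within host introns were 76.2% of the 403, against 54.6% of all 3572 loci. The 318 loci fell in 232 hosts, of which 218 were protein-coding and 225 met the same TPM and count limits. The annotation defines sense-intronic loci by such a position, so for those this is no measurement.

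Hosts were more abundant than the loci in them, both per length. The ratio of host to locus TPM had a median of 4.76, and 303 of 318 loci lay below their host. The 15 at or above it included Gm37082 in Fli1, where the locus had 36.8 TPM in replicate 2, against 11.5 TPM in replicate 1, and Fli1 had 19.6 TPM in replicate 2, against 15.9 TPM in replicate 1. Another was Gm17491, a 2-exon sense-intronic locus with 7.02 TPM in replicate 2, against 3.95 TPM in replicate 1, in Slc20a2, a phosphate transporter gene with 3.05 TPM in replicate 2, against 2.82 TPM in replicate 1. Over the 318 pairs, levels of locus and host had a Spearman's rho of 0.44; loci in 1 host share that host's value.

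Locus and host moved together in part. Spearman's rho between their shifts was 0.54 over 318 pairs, and 0.56 over 232 hosts with the mean of each host's loci. The locus was above its host in shift for 266 of 318, by a median of 0.43, or 0.42 with 1 value per host, positive for 193 of 232 hosts. Hosts themselves had a median shift of 0.07. Their longest transcripts had a median GC of 45.8%, against 41.1% for the hosted loci, and with centring within GC bins the median difference between locus and host was 0.21. In the transcript table made from the reads directly, where these loci have lower TPM, the difference was 0.02, with 162 of 318 positive; with 0.1 in place of 1 added to each TPM it was 0.44 there, with 278 positive. The locus-host difference thus depends on the amount added to low values in that table. Distance of the locus from the host's start had a rho of 0.05 with the shift.

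**Figure D4:**
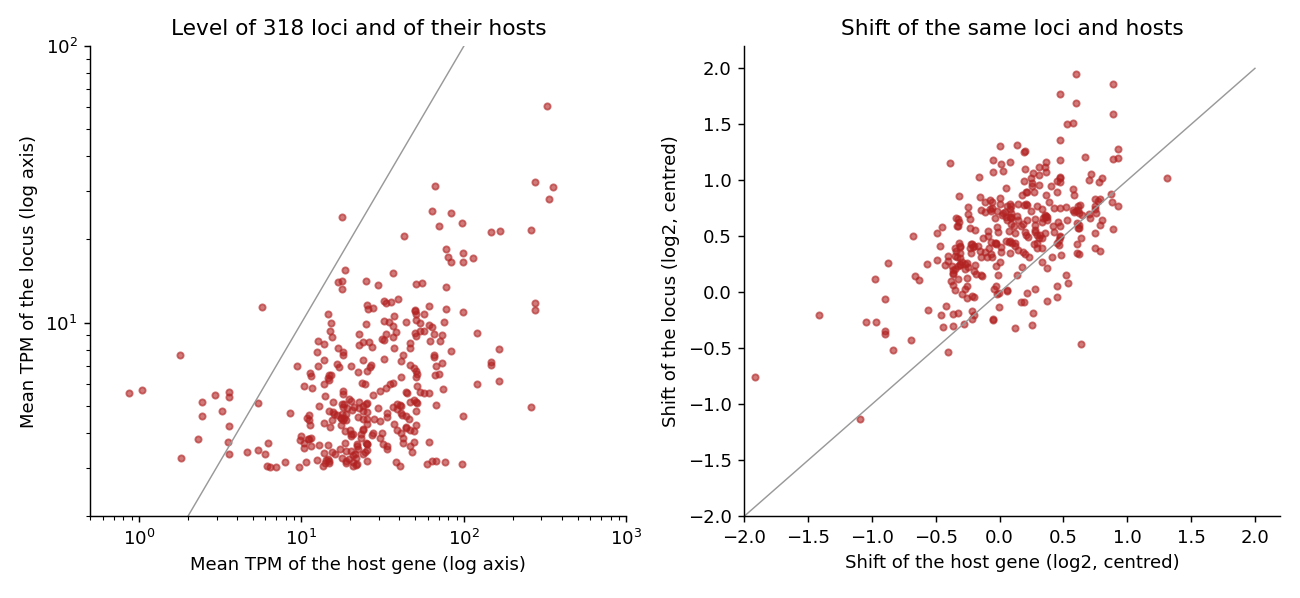
Left, mean TPM of 318 loci against that of their same-strand hosts (log axes); right, the shift of the same loci against the shift of their hosts. The grey lines mark equal values: 303 loci lie below the line on the left, and 266 lie above it on the right.

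Several hosts held many loci, which allows a comparison within 1 gene. There were 50 hosts with at least 2 loci, holding 136 loci, and 9 with at least 4. Over the 50 hosts the SD of the shift was 0.26 within hosts and 0.39 between host means, so loci of a host were more alike in shift than loci of different hosts, as they also were in GC content (SD 2.71 within and 4.15 between, in percentage points).

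Mir99ahg, the long noncoding host gene of the miR-99a cluster, held 8 loci spread from 145633 to 448960 bases after its start. They lay between 4.26 and 7.76 TPM in replicate 2 and between 1.73 and 2.74 TPM in replicate 1. A locus below 3 TPM in replicate 1 passes the limit on the mean only if it is above 3 TPM in replicate 2. The gap between these ranges is therefore set by the choice of loci. Their shifts ran from 0.50 to 1.18, all above the 0.48 of the host. Cers6, a ceramide synthase gene, held 6 loci with 4.98 to 10.6 TPM in replicate 2 and 3.39 to 7.41 TPM in replicate 1, and shifts of -0.30 to 0.20, all above the -0.36 of Cers6. The loci of Mir99ahg and of Cers6 do not overlap in shift. Their GC content was 33.4% to 41.1% in Mir99ahg and 38.2% to 46.1% in Cers6.

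Ncoa2, a nuclear receptor coactivator gene, held 5 loci with a narrow range of shifts, 0.61 to 0.77, although they span positions 17353 to 194369 bases after its start; Ncoa2 itself shifted by 0.09. Picalm had the widest range of shifts among the 9 hosts, 0.57 to 1.86: its 4 loci, in order from the start of the gene, were Gm45223 with 26.6 TPM in replicate 2, against 6.50 TPM in replicate 1, Gm45222 with 29.8 TPM in replicate 2, against 5.97 TPM in replicate 1, Gm45221 with 16.6 TPM in replicate 2, against 5.34 TPM in replicate 1, and Gm45220 with 6.23 TPM in replicate 2, against 3 TPM in replicate 1. The 2 nearest the start were the highest in replicate 2. In Fli1 the level also fell along the gene in replicate 2, with 36.8, 19.5, 15.9 and 7.38 TPM for Gm37082, Gm37474, Gm38346 and Gm38292, while replicate 1 had 11.5, 8.72, 10.5 and 2.82 TPM for the same loci. In Camk2d, a calcium and calmodulin-dependent kinase gene, the 2 loci nearest the start were also the highest, with 9.30, 11.4, 6.93, 4.09 and 5.63 TPM in replicate 2 and 4.82, 5.44, 3.41, 3.08 and 2.58 TPM in replicate 1. Picalm, Fli1 and Camk2d are examples picked after their values were seen, and level against position was not tested over the hosts. In Lncpint the locus farther from the start was the higher one. Rap1a, a small GTPase gene, was an exception in that 3 of its 4 loci had shifts below the 0.75 of the host.

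**Figure D5:**
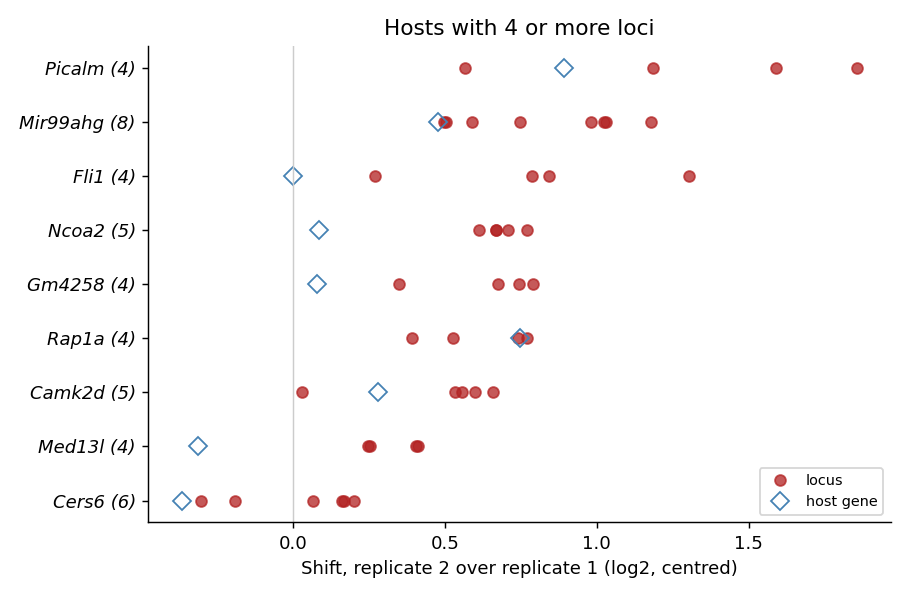
Shift (log2 of replicate 2 over replicate 1, centred) of each locus (filled circles) and of its host gene (open diamonds) for the 9 hosts with 4 or more loci, with the number of loci in brackets. The spread of loci differs between hosts, from 0.61 to 0.77 in Ncoa2 and from 0.57 to 1.86 in Picalm. Most loci lie to the right of the host, with Picalm at the top and Cers6 at the bottom.

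The 85 loci without a host had a median shift of 0.29, against 0.53 for the hosted ones, and a median GC of 43.3%, against 41.1%. Of them, 57 overlapped a gene on the opposite strand, 29 with bases opposite its exons; their shifts were spread widely, with an SD of 0.63 over loci, against 0.44 for loci in host introns. Examples are AC167363.2 opposite Cdkn1a, the p21 cell cycle inhibitor gene, with 17.8 TPM in replicate 2, against 16.6 TPM in replicate 1, and Gm44981 opposite Slc6a6, the taurine transporter gene, with 15.3 TPM in replicate 2, against 14.4 TPM in replicate 1. The libraries were close for both. Because the strand setting is not given, their reads and those of the opposite gene cannot be told apart where exons are shared.

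Some loci began soon after the end of a coding gene on the same strand. Among the 85, 7 started within 1000 bases, 14 within 5000 bases and 21 within 10000 bases of such an end. The nearest was 2210406H18Rik, 108 bases after Igsf6, an immunoglobulin superfamily gene of myeloid cells, with 16.5 TPM in replicate 2, against 9.96 TPM in replicate 1. Gm47567 began 873 bases after Gpr65, a proton-sensing receptor gene, and had 14.2 TPM in replicate 2, against 3.79 TPM in replicate 1. Gm20712, annotated as sense-overlapping, overlapped no other gene and began 318 bases after Tmem65. The 7 genes ending within 1000 bases all met the TPM and count limits. No distances of other loci are set beside these counts, so they are not shown to be particular to the 85.

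The 24 loci that overlapped no other gene on either strand had a median of 7.42 TPM in replicate 2, against 4.09 TPM in replicate 1, and a median shift of 0.19, with 18 of 24 above 0. The most abundant was Gm37226 (chr9:88682932-88686186, minus), with 22.0 TPM in replicate 2, against 11.6 TPM in replicate 1, which begins 2416 bases after Mthfsl. Loci with no overlap made up 5.96% of the 403 but 27.0% of all 3572 loci of the types.

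The deposited estimates gave no error of read assignment for most loci and a large one for a few. The posterior SD of the count, a measure of how far reads could be moved between annotated transcripts, was 0 in both libraries for 357 of 403 loci (88.6%), against 66.4% of all genes under the limits. It does not cover unspliced RNA of a host, which the annotated transcripts do not hold. It was over 5% of the count in at least 1 library for 8 loci. Gm20236 and Gm37094 are identical over their 4540 bases and were each given 313.5 counts in replicate 2 and 426.5 in replicate 1, with posterior SDs of 195 in replicate 2 and 210 in replicate 1, so only their sum is measured. The 357 loci had a median shift of 0.50.

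Replicate 2 was the shallower library, with 17739520 expected counts, against 21954179 for replicate 1. A locus had a median of 295 counts in replicate 2, against 217 in replicate 1. All 10 macrophage marker genes reached at least 1 TPM, with summed levels of 3916 TPM in replicate 2, against 3295 TPM in replicate 1. Of the markers of other cells, 1 of 7 for neutrophils (S100a9, mean 1.42 TPM) and 1 of 6 for stromal cells (Pecam1, mean 1.55 TPM) reached it, and none of 5 for dendritic cells, 7 for lymphoid cells or 5 for erythroid and mast cells; their part in the levels of the loci was not tested. Of a list for exosome-linked turnover of nuclear RNA, 9 of 10 symbols matched: the symbol Mtr4 did not, while Mtrex did. All 9 reached 1 TPM, with a median of 23.3 TPM and 0 past 2-fold between libraries. Their shifts ran from -0.47 (Pabpn1, a poly(A)-binding protein gene) to 0.42 (Zfc3h1, of the PAXT complex). The NEXT members Rbm7 and Zcchc8 had 35.1 and 26.2 TPM in replicate 2 and 24.7 and 20.5 TPM in replicate 1. All 8 genes of a transcription termination list reached 1 TPM too, with shifts of -0.44 (Pcf11) to 0.36 (Cstf2).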

How the data were processed

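Ribosomal RNA-depleted total RNA of the nuclear fraction was measured in 2 libraries of 1 group, numbered as in the labels. The values were deposited on mm10 with GENCODE M21, per the files deposited with the samples; no source used here names the aligner, the quantifier versions or the strand setting. The authors deposited expected counts, which are estimated reads per gene that need not be whole, and TPM, which divides them by effective length and scales each library to 1 sum, per the file headers. The deposited posterior SD of each count is a signal value on the count scale, and the lower and upper TPM bounds are scores of estimation error within a library, per the file headers. Transcript tables deposited by the authors give isoform percent, per the file headers, and a further one gives estimated counts and TPM from the reads directly.

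Loci were joined to types by gene identifier, and positions and contexts were taken from GENCODE M21; sequences came from its transcripts. The shift is log2((TPM in replicate 2 + 1)/(TPM in replicate 1 + 1)) less its median, 0.29, among genes averaging 1 TPM or more. Wilson intervals are at 95% and cover counting error only. Named loci are the 20 highest by TPM, 10 by counts, 5 at each end of the shift, 5 longest, 5 shortest, 3 highest per type and 3 each side of the TPM limit, and their hosts; further loci were named as examples after their values were seen. The members and lists were chosen with earlier results of these data known. A chi-square of rounded counts over 14347 genes with 10 or more in each library gave 91.3 per degree of freedom, so they are not the same counts deposited again; this sets the difference against counting error only. No p-value was computed, since there is 1 library on each side. Depth was 17739520 expected counts in replicate 2 and 21954179 in replicate 1. Alternatives were other pseudocounts, centrings, limits, TMM scaling of counts (edgeR), and the other table. Python 3, numpy, pandas and matplotlib were used.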

Additional observations from a re-analysis of the deposited data

How the results depend on the processing

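The median shift stayed above 0 under all 20 alternatives, while its size moved. It was 0.57 with pseudocount 0.1, 0.28 with pseudocount 5, 0.77 without centring and 0.54 with CPM (counts scaled to the library total). It was 0.23 in the other transcript table and 0.19 over the 24 loci overlapping no gene. Over all 1912 loci with any count it was 0.023, with 988 above 0. With settings chosen after seeing the data it was 0.17 with GC bins, 0.58 with pseudocount 0, and 0.39 in the other table with pseudocount 0.1. The cause of these moves was not tested. In the other table, 335 of 403 loci kept the sign of their shift.

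In the counts that follow, brackets hold the share of all genes past the same fold in that setting. Loci past 2-fold higher numbered 8 with pseudocount 5 (0.756%), 113 without centring (5.70%) and 11 in the other table (1.06%). They numbered 6 with GC bins (0.866%), 161 at 1.5-fold (9.44%) and 6 at 3-fold (0.263%), against 46 (1.9%). Past 2-fold lower there were 0 with pseudocount 5 (1.2275%) and 1 without centring (1.5015%). Lower loci numbered 7 at 1.5-fold (11.771%) and 1 at 3-fold (0.72337%), against 3 (3.28%). Locus minus host shift was 0.024 in the other table, 0.52 there with pseudocount 0, 0.56 with pseudocount 0 and 0.54 with 0.1 in the gene table, and 0.21 with GC bins, against 0.43.

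The number of loci was 715 at 1 TPM and 68 at 10 TPM, and 261 to 521 with either replicate left out. Median length was 2317 bases at 1 TPM, 1983.5 at 10 TPM and 1918 as effective length. The median level was 3.76 to 6.93 TPM with either replicate left out, and 13.2 as CPM. The loci's share was 0.405% of TPM, or 0.285% without Gm37376. No paired analysis was possible because there is 1 group. With 22 to 100 counts in a library, as at the lowest loci, single shifts are limited by counting error.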
